A study of Mus musculus with 45 samples.

Results

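The genes examined were 7 that estradiol is known to induce in the epithelium of the rodent uterus, Ltf, C3, Muc1, Clca1, Padi1, Padi2 and Padi4. They were chosen by symbol from the 24422 genes of the deposited table, and each symbol was found. All 7 passed the filter on low counts in each of the 10 comparisons. Their measured values had no part in the rule that chose them, but results of these data were known when the list was drawn up.

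In the rodent uterus estradiol acts through the estrogen receptor Esr1, and during proestrus and estrus the luminal epithelium responds by secreting proteins into the lumen and by remodelling its surface. Lactotransferrin, encoded by Ltf, is an iron-binding protein of this secretion and a classic readout of estrogen action, and C3 is the central component of the complement cascade. Muc1 is a membrane-spanning mucin of the apical surface, Clca1 is a secreted protein of mucus-producing epithelia, and the Padi genes encode peptidylarginine deiminases, enzymes that convert arginine to citrulline in proteins.

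RNA was sequenced from 14 female mice of the outbred CD-1 strain, 7 wildtype (WT) and 7 constitutive Plag1 knockouts (KO), in whose mutant allele lacZ replaces the open reading frame of Plag1 in every tissue. All females were 1 to 3 months old and had received 5 IU of pregnant mare serum and, 2 days later, 5 IU of hCG to induce superovulation, and their uteri were taken on the following day. From each mouse 3 samples were sequenced, an intact piece of horn (uterus), the mucosa after scraping (endometrium) and the wall left behind (myometrium), which gave 6 groups of 7 mice and 45 libraries. The methods describe superovulated females with and without mating, and neither mating nor the stage of the cycle was given for single mice. Because every mouse received gonadotropins, the series held no estrogen-free or untreated control, and induction itself was not measured.

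The libraries held 256298 to 1222627 gene counts, so that the smallest level taken as shown, 3 counts, was 2.45 to 11.7 in the CPM unit, in which each count is divided by the total of its own library. Of the 294 values of the 7 genes, 30 lay under it, 10 of them for Clca1 and 8 for Padi4. No library held more than 1 count of Plag1, so the genotype could not be checked from it. All 6 epithelial markers read (Krt8, Krt18, Krt19, Epcam, Cdh1 and Cldn4) were higher in endometrium than in myometrium in both genotypes (edgeR, adjusted p under the threshold of 0.05). The summed level of 6 smooth muscle markers, called lower in endometrium than in myometrium, was still 13686 CPM in endometrium of WT mouse 3 and 13164 CPM in that of KO mouse 13, against group medians of 2243 and 790 CPM. WT mouse 5 held the highest epithelial sum in myometrium, 676 CPM against a WT median of 173 CPM. Bulk tissue does not separate luminal from glandular epithelium, so whether the 7 genes were expressed in luminal cells here was not tested.

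The genes lie at 5 places in the genome, given here in build NCBIM37 (mm9), the build of the deposited counts. Ltf spans chromosome 9, 110921796 to 110945270 (plus strand), and C3 spans chromosome 17, 57343397 to 57367559 (minus strand). Muc1 spans chromosome 3, 89032979 to 89037303 (plus strand). Clca1, which the annotation of that build lists under its older name Clca3, spans chromosome 3, 144667501 to 144695740 (minus strand). The Padi genes are neighbours on chromosome 4, with Padi4 at 140301780 to 140330151 (minus strand), Padi1 at 140368898 to 140401693 (minus strand) and Padi2 at 140462259 to 140508501 (plus strand), within 206722 bases. Exons of Padi1 overlap those of Gm13032 and exons of Padi2 overlap those of Gm13031, both noncoding genes on the opposite strand. The use of strand in counting was not stated, so reads of these pairs cannot be told apart.

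The library protocol reads the 5′ ends of transcripts, so counts begin at the promoters, and RefSeq (build GRCm38.p6) held the promoter of 6 of the 7 genes, 250 bases before to 50 after the annotated start. Those of Ltf, C3, Muc1 and Padi4 are shown, the secreted and surface proteins together with the Padi gene that had the largest KO to WT difference in endometrium. Letters in capitals mark matches, on either strand, to the single arm of an estrogen response element (AGGTCA), the TATA box (TATAAA) or the GC box (GGGCGG). The single arm shares the letters GGTCA with the full element searched, GGTCANNNTGACC, and the other motifs share none with it.
Ltf promoter, chr9:111019042-111019341, plus strand: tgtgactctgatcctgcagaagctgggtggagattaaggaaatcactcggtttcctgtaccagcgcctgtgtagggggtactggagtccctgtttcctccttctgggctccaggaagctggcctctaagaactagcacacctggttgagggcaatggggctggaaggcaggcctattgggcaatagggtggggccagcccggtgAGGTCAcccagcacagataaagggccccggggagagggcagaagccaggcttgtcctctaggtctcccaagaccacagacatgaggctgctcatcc
C3 promoter, chr17:57228087-57228386, minus strand: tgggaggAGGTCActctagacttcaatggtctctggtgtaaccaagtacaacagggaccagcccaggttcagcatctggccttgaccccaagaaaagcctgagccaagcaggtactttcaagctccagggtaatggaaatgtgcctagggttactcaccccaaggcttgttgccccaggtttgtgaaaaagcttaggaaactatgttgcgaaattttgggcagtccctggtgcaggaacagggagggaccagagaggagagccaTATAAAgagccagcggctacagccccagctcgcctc
Muc1 promoter, chr3:89228806-89229105, plus strand: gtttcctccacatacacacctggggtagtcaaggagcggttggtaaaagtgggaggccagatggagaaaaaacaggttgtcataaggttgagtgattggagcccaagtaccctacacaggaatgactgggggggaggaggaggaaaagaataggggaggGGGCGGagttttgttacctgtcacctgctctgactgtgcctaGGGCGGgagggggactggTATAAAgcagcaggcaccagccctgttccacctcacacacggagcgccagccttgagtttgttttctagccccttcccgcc
Padi4 promoter, chr4:140774154-140774453, minus strand: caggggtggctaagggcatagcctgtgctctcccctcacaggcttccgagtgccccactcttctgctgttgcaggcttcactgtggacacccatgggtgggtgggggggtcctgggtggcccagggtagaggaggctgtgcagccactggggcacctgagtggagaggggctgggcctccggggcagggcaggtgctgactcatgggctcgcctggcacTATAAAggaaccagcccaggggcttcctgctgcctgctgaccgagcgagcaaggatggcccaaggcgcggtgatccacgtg
The arm AGGTCA stood 46 bases before the start of Ltf and 243 bases before that of C3. It was in 16.3% of all 32851 promoters. The full element was in none of the 6 promoters and in 23 of all promoters. TATAAA stood 31 bases before the starts of both Muc1 and Padi4, and in C3 it stood 14 bases after the annotated start, and 13.6% of all promoters held it. Muc1 held GC boxes at 91 and 49 bases before its start and Padi2 held 3, against 35.7% of all promoters with at least 1, and the Padi1 promoter held no match to any motif. These are matches of letters in a window, with no measurement of binding.

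Ltf was high in most mice and low in a pair of them. In WT mice it ran in uterus from 16.5 CPM (mouse 3) over a median of 382 to 1853 CPM (mouse 12), in endometrium from 44.2 (mouse 3) over 823 to 1819 CPM (mouse 8), and in myometrium from 0 counts (mouse 3) over 113 to 496 CPM (mouse 5). In KO mice it ran in uterus from 78.5 CPM (mouse 13) over 628 to 2523 CPM (mouse 11), in endometrium from 81.0 (mouse 13) over 1900 to 3291 CPM (mouse 11), and in myometrium from 2.14 (mouse 13, 1 count) over 99.3 to 576 CPM (mouse 11). WT mouse 3 was lowest and KO mouse 13 second lowest of the 14 mice in all 3 tissues, and the ranges of the genotypes overlapped in each. In uterus the next mouse above mouse 3 was 4.76-fold higher, and in endometrium the next mouse above mouse 13 was 5.08-fold higher. In endometrium 4 of 7 KO mice lay above the highest WT mouse, and 3 of 7 lay below the WT median. Mice 3 and 13 also had the highest smooth muscle sums of their groups in endometrium, whose part in their low Ltf was not tested.

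C3 was the only member above the floor of 3 counts in every sample. In uterus it ran from 157 CPM (mouse 7) over 238 to 1423 CPM (mouse 5) in WT and from 309 (mouse 13) over 597 to 1371 CPM (mouse 14) in KO. In endometrium it ran from 110 CPM (mouse 3) over 455 to 2457 CPM (mouse 5) in WT and from 488 (mouse 14) over 1131 to 1982 CPM (mouse 11) in KO. In myometrium it ran from 70.8 CPM (mouse 1) over 134 to 524 CPM (mouse 5) in WT and from 152 (mouse 9) over 190 to 294 CPM (mouse 11) in KO. WT mouse 5 was the highest WT mouse in each tissue, and the 7 KO values lay above the WT median in each tissue and below the highest WT value.

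Muc1 followed the order of Ltf at its low end. Its range in uterus was 2.47 CPM (mouse 3) to 205 CPM (mouse 12) around a median of 34.4 in WT, and 12.9 (mouse 13) to 298 CPM (mouse 6) around 53.2 in KO. In endometrium it was 4.02 CPM (mouse 3) to 189 CPM (mouse 12) around 85.8 in WT, and 16.9 (mouse 13) to 508 CPM (mouse 6) around 160 in KO. In myometrium the highest values were 16.9 CPM in WT (mouse 5) and 26.05 CPM in KO (mouse 11), with medians of 12.0 and 9.87 CPM and 0 counts in WT mouse 3 and KO mouse 4. The same WT mouse 3 was lowest, alone or tied, in the 3 tissues, and the genotypes overlapped.

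The same 5 mice were highest for Clca1 in all 3 tissues, WT mice 5 and 12 and KO mice 6, 9 and 11. In uterus these 5 mice had 280 to 389 CPM and the other 9 had at most 8.96 CPM, a 31.2-fold step with no mouse between. In endometrium the 5 mice had 281 to 1267 CPM and the next mouse, WT mouse 1, had 66.3 CPM, a 4.23-fold step. In myometrium they had 29.0 to 152 CPM and the next mouse had 6.27 CPM (4 counts), a 4.63-fold step. Both genotypes held high and low mice, so group means describe few animals, and no correlation is given for this gene because its mice fell into separate sets. The plot of Clca1 and Ltf by mouse shows both patterns.

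**Figure D1:**
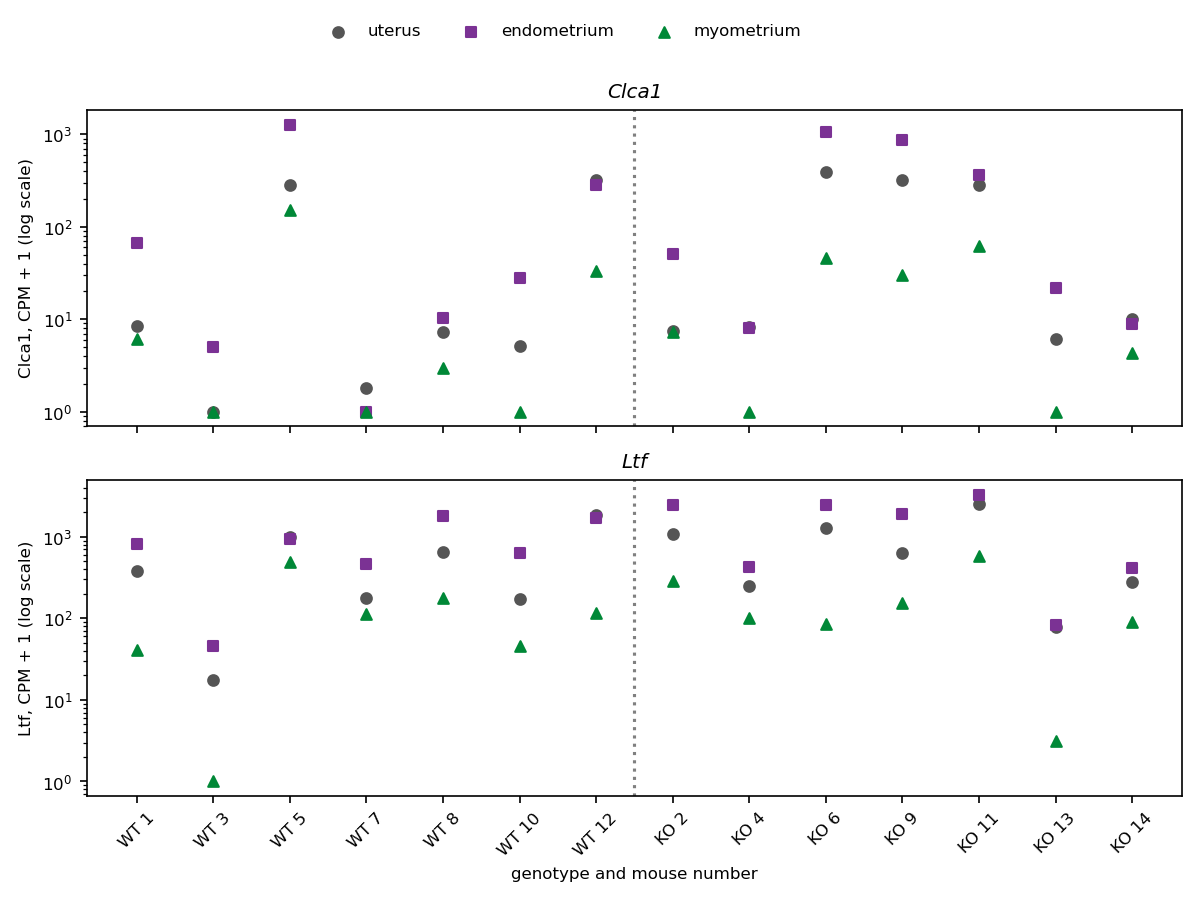
Level of Clca1 (top) and Ltf (bottom) in each of the 14 mice (x axis, WT left and KO right of the dotted line), as CPM + 1 on a log axis, with a symbol for each tissue. In uterus WT mice 5 and 12 and KO mice 6, 9 and 11 sit at 280 to 389 CPM of Clca1 and the other 9 mice at or below 8.96 CPM, and for Ltf WT mouse 3 is lowest in every tissue.

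KO mouse 11 was highest for Ltf in each tissue and among the high mice for Clca1, and it led most Padi values as well. KO mouse 11 was the highest of 14 in 7 of the 9 combinations of a Padi gene and a tissue, with the others led by KO mouse 4 (Padi1 in uterus, 259 CPM) and WT mouse 5 (Padi2 in uterus, 168 CPM). Padi1, known from epidermis and uterus, ran in uterus from 27.8 over 51.2 to 137 CPM in WT and from 29.2 over 78.9 to 259 CPM in KO. In endometrium it ran from 51.1 over 130 to 232 CPM in WT and from 15.9 (mouse 14) over 177 to 723 CPM (mouse 11) in KO, and in myometrium from 5.82 over 13.5 to 48.7 CPM and from 1.64 over 25.6 to 110 CPM. WT mouse 3 and KO mouse 13, at the bottom for Ltf, had ranks 10 and 4 from the lowest of 14 for Padi1 in uterus.

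Padi2, the most widely expressed enzyme of the family, ran in uterus from 3.17 over 36.0 to 168 CPM in WT and from 8.58 over 21.9 to 116 CPM in KO. In endometrium it ran from 12.4 over 40.6 to 233 CPM in WT and from 19.1 over 57.1 to 395 CPM in KO. In myometrium WT mice had 0 to 15.5 CPM around a median of 4.31 and KO mice had 1.87 to 60.8 CPM around 14.1. All WT myometrium values rested on at most 7 counts.

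Padi4, the member of the family known to act on histones in the nucleus, was the lowest in counts. It ran in uterus from 3.76 over 14.2 to 33.8 CPM in WT and from 5.15 over 24.6 to 76.1 CPM in KO. In endometrium it ran from 3.90 (mouse 1) over 14.2 to 43.7 CPM (mouse 10) in WT and from 6.53 (mouse 9) over 53.1 to 138 CPM (mouse 11) in KO. In myometrium no library had more than 11 counts, and 7 of 14 mice were under 3 counts. The WT and KO ranges were apart in 0 of the 21 combinations of gene and tissue.

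**Figure D2:**
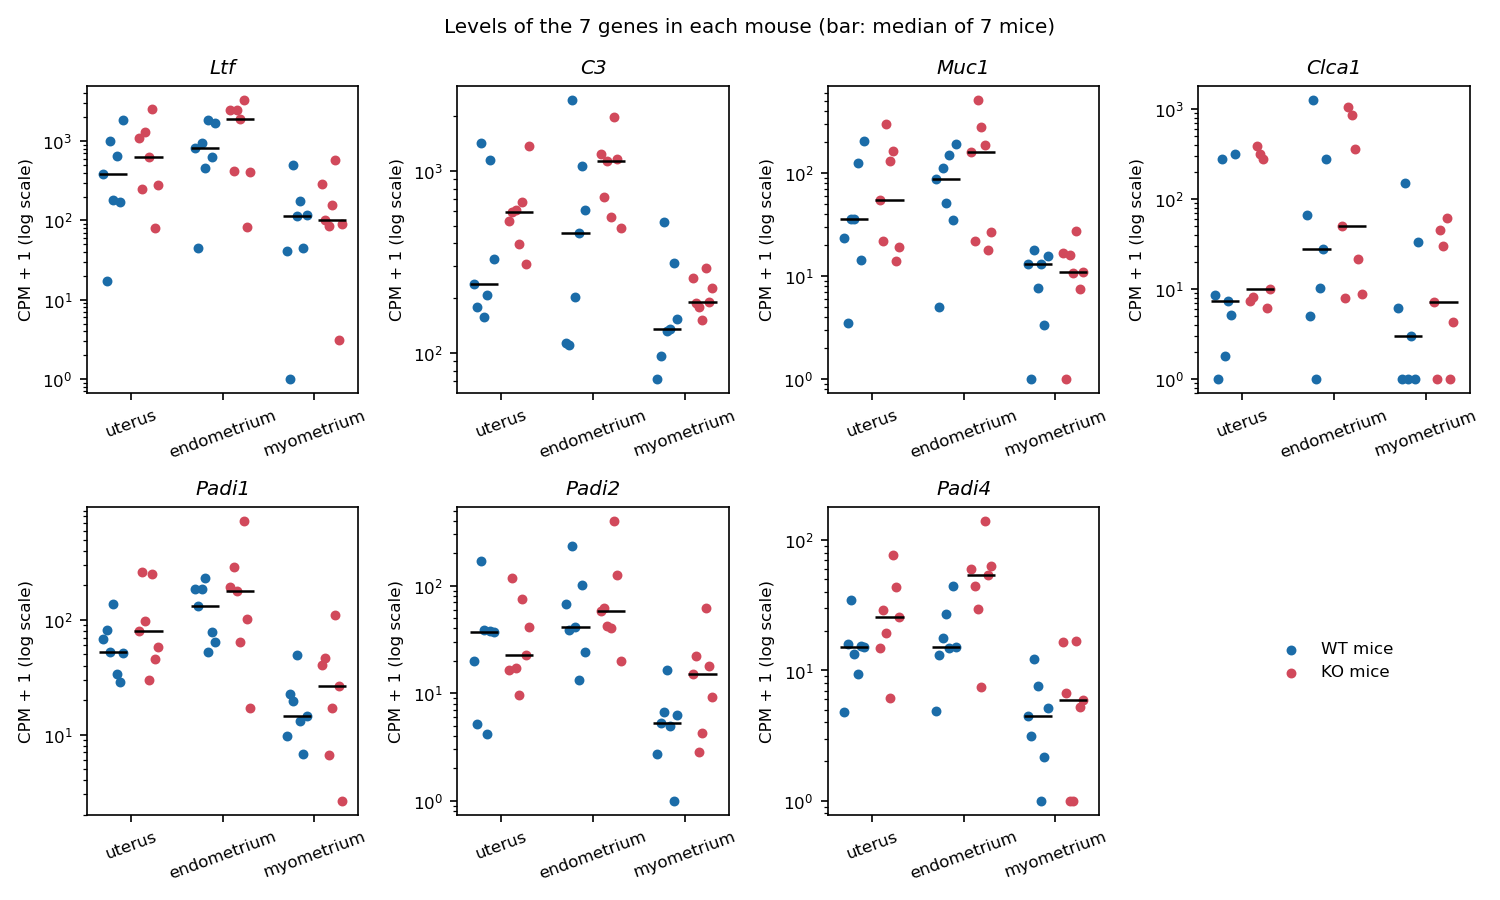
Level of each of the 7 genes in whole uterus, endometrium and myometrium, as CPM + 1 on a log axis. Each point is 1 mouse (WT blue, KO red) and each bar the median of 7 mice, and for Padi4 in endometrium the medians are 14.2 CPM in WT and 53.1 CPM in KO with overlapping points.

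The spread between mice of the same group was large for all 7 genes. The SD of log2 CPM within genotypes was 1.85, 1.80 and 2.29 for Ltf in uterus, endometrium and myometrium, and 2.78, 2.93 and 2.11 for Clca1. It was 1.71, 1.71 and 1.08 for Muc1, and for C3 it was 0.95, 1.27 and 0.77. Over all genes tested the median SD was 0.57, 0.61 and 0.59 in the same tissues. In 20 of 21 combinations of gene and tissue the SD was at or above the 90th percentile of all genes tested, and the SD of Clca1 in endometrium was the largest of 13004. Genes at the level of C3 or higher in uterus had a median SD of 0.37, below the 0.95 of C3 itself.

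Repeat libraries of a single mouse and tissue gave the spread between libraries, and the labels did not say whether they shared the same RNA. For endometrium of KO mouse 13 there were 3 libraries, in which Ltf was 68.5 to 89.7 CPM, Clca1 17.9 to 23.6 CPM and Padi1 70.1 to 115 CPM. In the same libraries C3 was 524 to 1788 CPM, a 3.42-fold range, and Padi2 was 37.5 to 169 CPM, a 4.49-fold range. For myometrium of WT mouse 12 there were 2 libraries, with Ltf at 108 and 123 CPM, Clca1 at 20.1 and 45.4 CPM, and ranges of 2.69-fold for Muc1 and 3.23-fold for Padi4. The low Ltf of mouse 13 was found in each of its 3 libraries, whereas C3 and Padi2 varied several-fold among them.

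**Figure D3:**
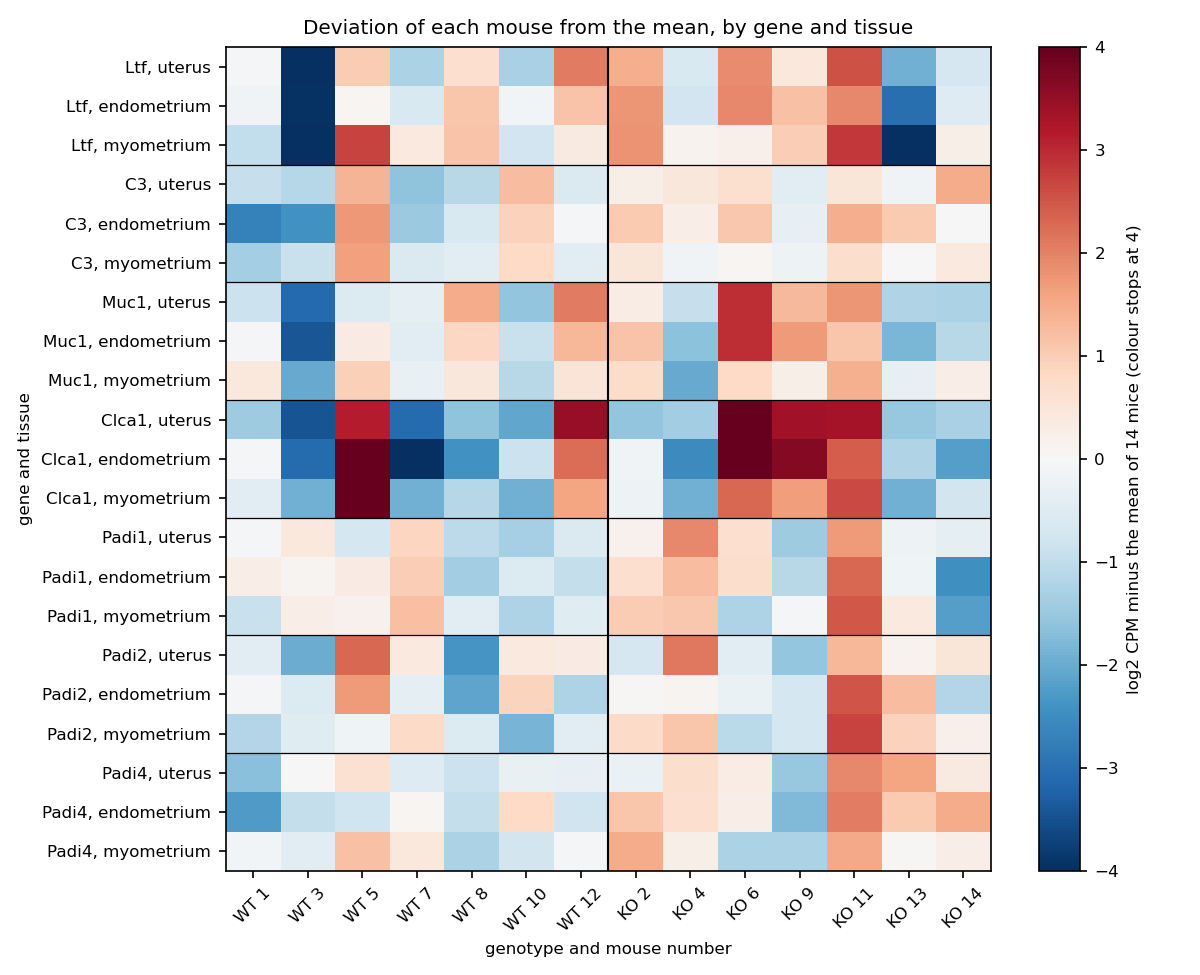
Deviation of log2 CPM of each mouse (columns) from the mean of the 14 mice, for each gene and tissue (rows), in colour from blue (below the mean) to red (above), with colour stopping at 4. Columns of WT mouse 3 and KO mouse 13 are blue for Ltf in all 3 tissues, and that of KO mouse 11 is red for the Padi genes.

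The level of a member in a mouse carried over between samples of the same uterus. Endometrium and myometrium were the scraped mucosa and the wall left behind, so relations between them are not between separate pieces. The part of mucosa left on the wall in those relations was not tested. Over the 14 mice and without Clca1, 14 of 18 relations between tissues of the same mouse had an adjusted Pearson p under 0.05 and 18 of 18 were positive (permutation tests, Benjamini-Hochberg over the 21 relations computed). For Ltf in uterus and endometrium Pearson's r was 0.93 and Spearman's rho 0.89 (permutation p = 1e-05, the smallest the resamples allow, and 4e-05, adjusted p = 7e-05 and 0.000472), and r was 0.86 without the 2 farthest mice. For Muc1 r was 0.93 and rho 0.90 (permutation p = 2e-05 and 6e-05, adjusted p = 0.000105 and 0.000472), and r was 0.86 without the 2 farthest mice. Over all 14822 genes the median r between uterus and endometrium was 0.09, and Ltf and Muc1 lay at the 99.8th percentile.

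C3 had an r of 0.75 and a rho of 0.77 between uterus and endometrium (permutation p = 0.00182 and 0.00194, adjusted p = 0.00273 and 0.00453), with 0.82 without the 2 farthest mice. Within genotypes its r was 0.84 in WT and -0.02 in KO, and the difference between genotypes was not tested. For Padi1 the values were 0.78 and 0.83 (permutation p = 0.00092 and 0.00039, adjusted p = 0.00161 and 0.00136), for Padi4 0.78 and 0.75 (permutation p = 0.00092 and 0.00273, adjusted p = 0.00161 and 0.00573), and for Padi2 0.64 and 0.55 (permutation p = 0.0132 and 0.0439, adjusted p = 0.0173 and 0.0513). Without the 2 farthest mice r was 0.65, 0.68 and 0.51. With the genotype means removed, rho of Padi4 fell to 0.53 (adjusted permutation p = 0.0624) and its r without the 2 farthest mice to 0.37, and that r of C3 fell to 0.33. The relations of Padi2 and Padi4 in uterus or endometrium to those in myometrium did not pass for Pearson's r (4 relations, adjusted p of 0.0764 to 0.128). For Padi1 in uterus and myometrium and for Ltf in endometrium and myometrium r fell to 0.33 and 0.48 without the 2 farthest mice, so these relations rested in part on those mice.

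**Figure D4:**
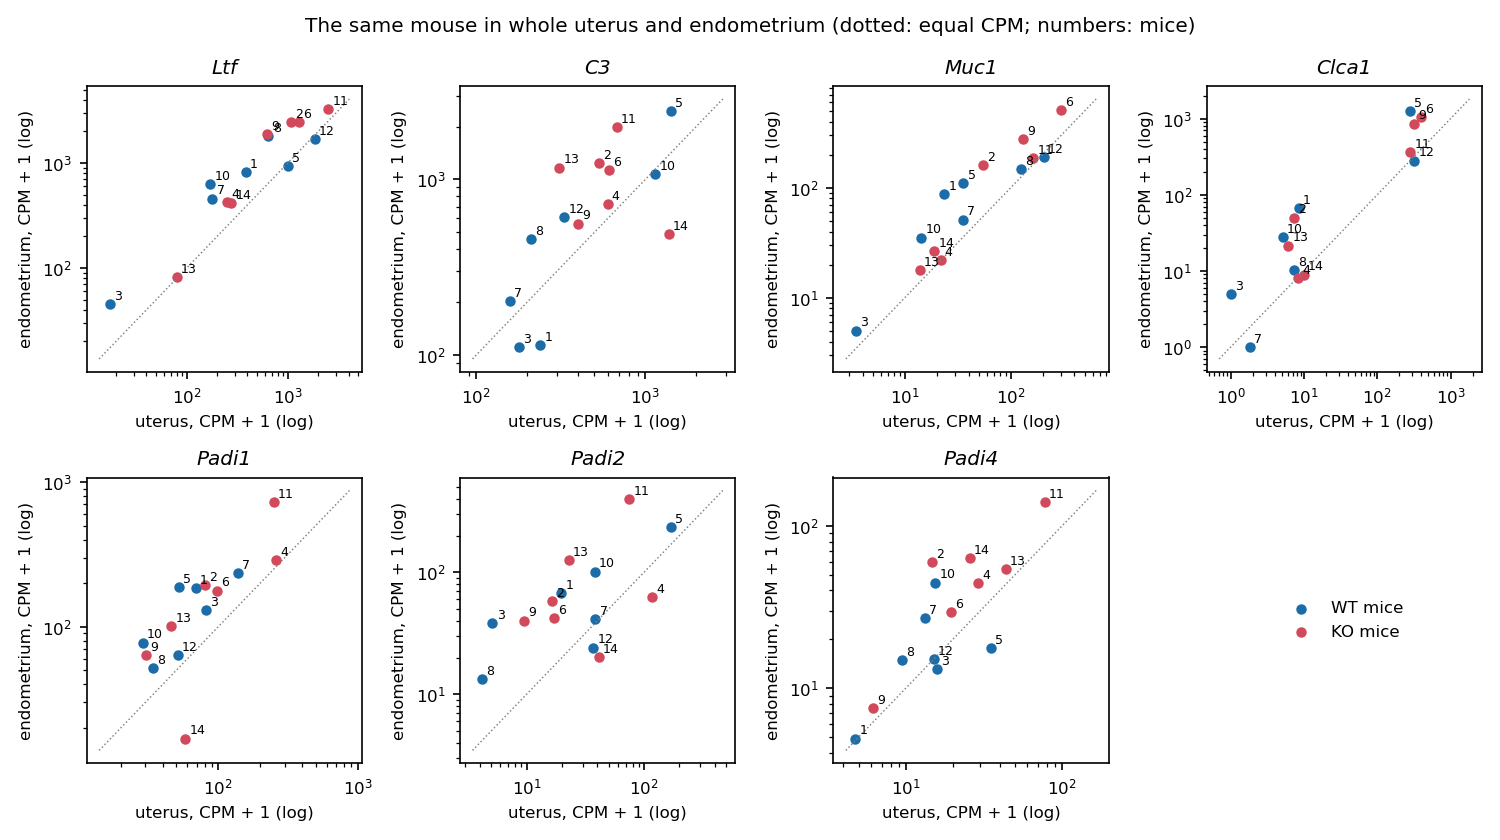
Level of each gene in whole uterus (x axis) against endometrium (y axis) of the same mouse, as CPM + 1 on log axes, with mouse numbers beside the points, WT blue and KO red. Points lie along the dotted line of equal CPM or above it for Ltf (r = 0.93) and Muc1 (r = 0.93), and Clca1 splits into 5 high and 9 low mice.

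Within a tissue the members were compared in pairs. Of the 45 pairs without Clca1 (15 in each tissue), 38 had a positive r and 4 had an adjusted p under 0.05 (Benjamini-Hochberg over the 63 pairs computed). Ltf and Muc1 correlated in uterus with an r of 0.87 and a rho of 0.88 (permutation p = 7e-05 and 0.00014, adjusted p = 0.0022 and 0.00294, r = 0.81 without the 2 farthest mice). In endometrium their r was 0.92 and their rho 0.92 (permutation p = 1e-05 and adjusted p = 0.00063 for both), with 0.89 without the 2 farthest mice. In myometrium Padi2 correlated with Padi1 (r = 0.79, rho = 0.78, adjusted permutation p = 0.0165 and 0.0194) and with Padi4 (r = 0.72, rho = 0.78, adjusted permutation p = 0.0249 and 0.0187), and r was 0.92 and 0.62 without the 2 farthest mice. These 2 pairs rest on few counts. In myometrium 4 of 7 WT and 2 of 7 KO values of Padi2 were under 3 counts, as were 4 and 3 of Padi4. The Padi genes had an r of -0.10 to 0.24 with Ltf and Muc1 in uterus and endometrium, and 0 of these 12 pairs passed.

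The genes nearest to each member in pattern were ranked by Pearson's r of the deviations from the 6 group means over 42 samples, among 8178 genes. The samples of a mouse and the libraries of a plate are shared by these points, and no test was made. Nearest to Ltf were Cfb (r = 0.87), Muc1 (0.79) and Rnf128 (0.78), and nearest to Muc1 were Ltf (0.79), Sprr2f (0.78) and Ctss (0.76). Nearest to C3 were Hgfac (0.79), Golm1 (0.75) and Prap1 (0.72). Padi1 was nearest to Net1 (0.69), Car12 (0.69) and Fabp5 (0.66), Padi2 to Klf4 (0.85), Chst8 (0.73) and Sec61a1 (0.70), and Padi4 to Krt7 (0.78), Fkbp11 (0.76) and Paqr5 (0.75). The first 3 genes for Clca1 were Fcgbp, BC048679 and Med24. Between Ltf and the Padi genes r was 0.09 to 0.12.

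The amount of epithelium in a sample was compared with the members through the mean log2 CPM of Krt8, Krt18, Epcam and Cdh1. Of 18 relations without Clca1, 17 were positive and 2 passed for Pearson's r and for Spearman's rho (Benjamini-Hochberg over 21). C3 in endometrium had an r of 0.86 and a rho of 0.80 with this level (permutation p = 9e-05 and 0.00092, adjusted p = 0.00189 and 0.00966), and Padi4 in myometrium an r of 0.83 and a rho of 0.82 (permutation p = 0.00035 and 0.00047, adjusted p = 0.00367 and 0.00966). Without the 2 farthest mice r was 0.77 and 0.75. Of the Padi4 values in myometrium 4 of 7 in WT and 3 of 7 in KO were under 3 counts, and none exceeded 11. For rho alone Padi2 in myometrium (r = 0.61, rho = 0.78, adjusted permutation p = 0.0842 and 0.0124) and Padi4 in uterus (r = 0.65, rho = 0.70, adjusted permutation p = 0.0592 and 0.0350) passed as well, with an r of 0.89 and 0.74 without the 2 farthest mice. Of the Padi2 values in myometrium 4 of 7 in WT and 2 of 7 in KO were under 3 counts. For Ltf in uterus r was 0.34 and rho 0.07 (adjusted permutation p = 0.326 and 0.907), and in endometrium they were 0.57 and 0.63 (adjusted permutation p = 0.0842 and 0.0567). Within genotypes r was 0.94 in WT and 0.39 in KO for C3 in endometrium, and 0.69 and 0.94 for Padi4 in myometrium. For Ltf in uterus it was 0.68 in WT and -0.50 in KO, and these differences between genotypes were not tested. In bulk tissue a smaller share of epithelial cells and less RNA per epithelial cell cannot be told apart.

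The layers were then compared in each genotype, to ask how far the members marked the scraped mucosa. The main fits took samples of the same mouse as independent. Every member had a higher mean in endometrium than in myometrium. In WT mice 6 of 7 were called higher (edgeR, adjusted p under 0.05), where 6.79% of all genes tested were called in that direction, and in KO mice 7 of 7 were, against 10.6%. The log2 fold change was largest for Padi2 in WT (3.68 ± 0.58, SE, n = 7 mice in each layer, adjusted p = 8.23e-05, edgeR) and for Clca1 in KO (3.90 ± 0.96, adjusted p = 0.00507, edgeR). Muc1 differed by 3.06 ± 0.54 in WT and 3.71 ± 0.67 in KO and Padi1 by 2.77 ± 0.40 and 2.52 ± 0.60. Ltf differed by 2.51 ± 0.63 in WT and 2.98 ± 0.67 in KO, and it was higher in endometrium in 14 of 14 mice.

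The WT calls of C3 and Padi4 depended on single mice. C3 differed by 1.58 ± 0.53 in WT (adjusted p = 0.0447, edgeR) and 2.24 ± 0.26 in KO, where all endometrium values lay above all myometrium values. Its WT call was lost under DESeq2 (adjusted p = 0.101), with a filter at 10 CPM (0.0601, edgeR) and without WT mouse 7, 8, 10 or 12 (0.0699 to 0.104, edgeR), whereas a fit that kept each mouse as a replicate block gave 1.24 (adjusted p = 4.56e-05, edgeR). Padi4 differed by 2.18 ± 0.55 in WT (adjusted p = 0.00757, edgeR), which became 1.56 (adjusted p = 0.0817, edgeR) without WT mouse 10, and by 2.87 ± 0.52 in KO. Clca1 missed the threshold in WT at 2.73 ± 1.04 (adjusted p = 0.0863, edgeR), was called with the mouse as a replicate block (3.11, adjusted p = 9.48e-13, edgeR) and without WT mouse 5 (2.96, adjusted p = 0.0317, edgeR), and was higher in endometrium in 6 of 7 WT mice.

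Whole uterus also exceeded myometrium. In WT 5 of 7 members were called (6.63% of all genes in that direction) and in KO 6 of 7 (8.04%). In WT C3 (1.40 ± 0.47, adjusted p = 0.0539) and Clca1 (1.65 ± 1.07, adjusted p = 0.339) missed the threshold of edgeR, and in KO Padi2 did (1.34 ± 0.53, adjusted p = 0.0874). With the mouse as a replicate block these 3 were called (edgeR, adjusted p = 8.34e-06, 0.00202 and 0.000743), and 7 of 7 members were called in each genotype. Ltf in WT was called narrowly (2.15 ± 0.71, adjusted p = 0.0484, edgeR) and lost the call under DESeq2 (adjusted p = 0.121). Clca1 in KO (2.91 ± 0.85, adjusted p = 0.0212, edgeR) lost it under DESeq2 (adjusted p = 0.0749) and in a fit of all 6 groups (adjusted p = 0.134, edgeR).

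Fitted differences of the members were smaller between endometrium and whole uterus than between endometrium and myometrium. By edgeR 0 of 7 members were called in WT and 0 of 7 in KO, against 0.565% and 0.324% of all genes higher in endometrium, with 0 of 7 at an unadjusted p under 0.05 in either genotype and 0 by DESeq2. The log2 differences ran from 0.22 (C3) to 1.09 (Clca1) in WT and from 0.48 (C3) to 1.03 (Padi2) in KO. With the mouse as a replicate block, Ltf (0.74, adjusted p = 0.0398), Clca1 (1.33, adjusted p = 0.0130) and Padi1 (0.78, adjusted p = 0.0436) were called higher in WT endometrium and Clca1 (0.99, adjusted p = 0.0317) in KO endometrium (edgeR). Padi1 was higher in endometrium than in uterus in 7 of 7 WT mice and 5 of 7 KO mice.

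KO and WT were compared within each tissue, to ask whether loss of Plag1 changed these genes. In no tissue was a member called. Uterus, endometrium and myometrium each had 0 of 7 (edgeR), where 0% of all genes tested were called in each tissue and DESeq2 also called 0 members (0, 1 and 0 genes in all). At an unadjusted p under 0.05 there were 2 members in uterus, 1 in endometrium and 2 in myometrium, all of them Padi genes, beside 732 of 12959, 676 of 13004 and 547 of 12991 genes in all. The fitted difference was above 0 (higher in KO) in 20 of 21 combinations of gene and tissue, a count without a test, since the tissues come from the same mice, where 45.3%, 51.3% and 46.8% of all genes were above 0 in uterus, endometrium and myometrium. With the epithelial level as a covariate C3 (-0.10) and Padi2 (-0.83) in uterus and Ltf (-0.00096) in endometrium were below 0 and Clca1 in myometrium above it (0.22), and with spike-in scaling Padi2 in uterus (-0.38) and C3 in myometrium (-0.0206) were below 0. The median log2 fold change of the members in uterus, endometrium and myometrium was 0.75, 0.80 and 0.43, and that of all genes tested was -0.05, 0.02 and -0.03.

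Padi2 in myometrium and Padi4 in endometrium had the smallest unadjusted p of these differences. For Padi4 in endometrium the KO values lay above the WT median in 6 of 7 mice and above the highest WT value in 4 of 7. The log2 fold change was 1.54 ± 0.46, or 2.92-fold (SE, n = 7 mice each; unadjusted p = 0.00286, adjusted p = 0.771, edgeR). It ranged from 1.24 (without KO mouse 11) to 1.97 (without WT mouse 10) when single mice were left out and was 1.22 with the epithelial level as a covariate, with adjusted p of 0.275 or more (edgeR). On log2 CPM the KO minus WT difference was 1.40 over all mice (exact permutation p = 0.0361), 1.67 among the 5 WT and 3 KO mice of plate rows A-C (exact permutation p = 0.0179, the smallest possible) and 0.72 among the 2 WT and 4 KO mice of rows D-F (exact permutation p = 0.667, smallest possible 0.0667). Each was 1 of 21 such tests, with p-values not adjusted. In uterus Padi4 differed by 1.13 ± 0.46 (unadjusted p = 0.0208, adjusted p = 0.788, edgeR) and in myometrium by 0.84 ± 0.64.

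Padi2 in myometrium had a log2 fold change of 1.97 ± 0.59 (unadjusted p = 0.00212, adjusted p = 0.844, edgeR), with 3 of 7 KO values above the highest WT value. Without KO mouse 11 it was 1.21, and over the other left-out mice it stayed between 1.70 and 2.44. With the epithelial level as a covariate it was 1.499. In rows A-C the difference on log2 CPM was 0.58 (exact permutation p = 0.411) and in rows D-F it was 1.93 (exact permutation p = 0.267). In uterus Padi2 differed by 0.13 ± 0.61, and this difference turned negative with spike-in scaling.

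Padi1 differed by 0.91 ± 0.43 in uterus (unadjusted p = 0.0453), 0.80 ± 0.50 in endometrium and 1.05 ± 0.50 in myometrium (unadjusted p = 0.0442), with adjusted p of 0.858 or more (edgeR). Without KO mouse 11 the values in uterus and myometrium were 0.69 and 0.37, without KO mouse 4 the value in uterus was 0.56, and with the epithelial level as a covariate the value in myometrium was 0.49. For the secreted and surface proteins the SE was close to the difference or exceeded it in uterus, at 0.58 ± 0.65 for Ltf, 0.42 ± 0.42 for C3, 0.75 ± 0.69 for Muc1 and 0.83 ± 1.06 for Clca1. In endometrium the differences were 0.87 ± 0.59, 0.70 ± 0.50, 1.08 ± 0.64 and 0.79 ± 1.06 for the same genes. In myometrium they were 0.39 ± 0.59, 0.05 ± 0.31 and 0.43 ± 0.52 for Ltf, C3 and Muc1, and -0.39 ± 0.81 for Clca1, which became 1.53 without WT mouse 5.

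**Figure D5:**
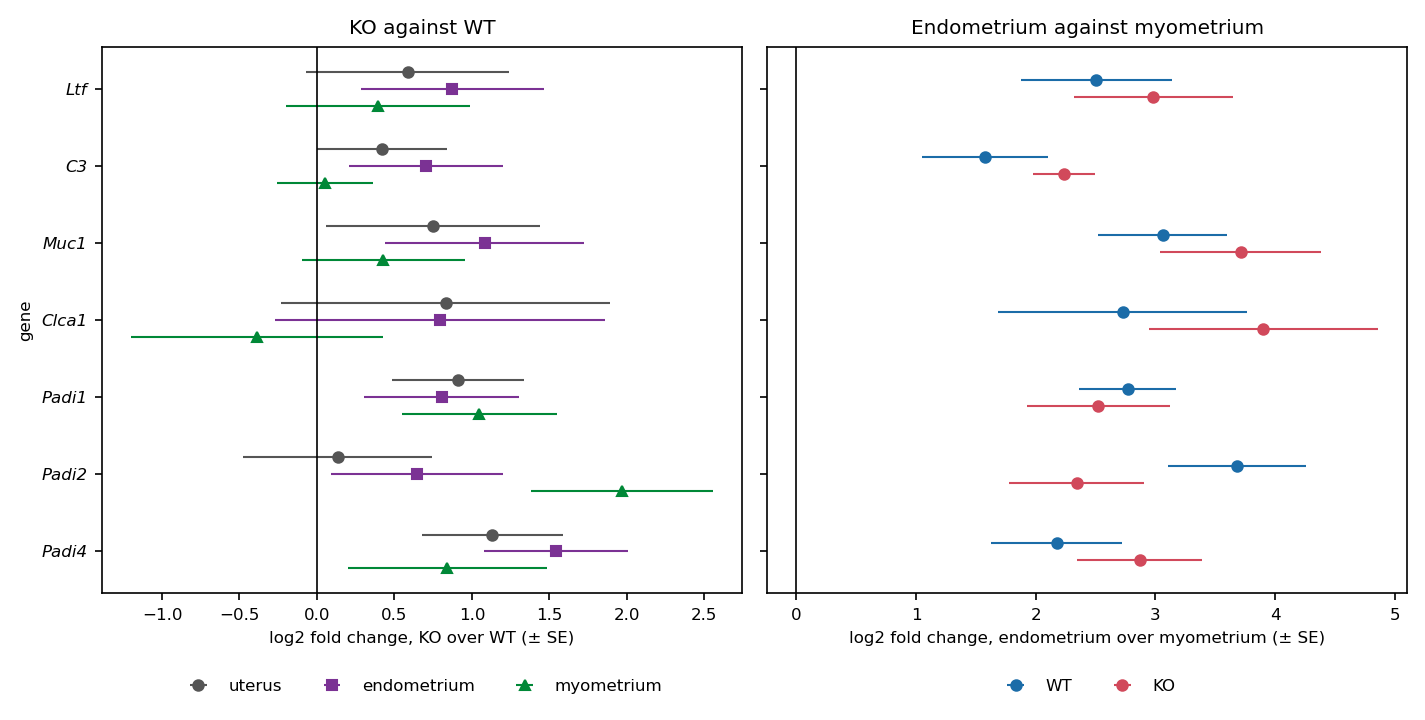
Log2 fold changes (x axis) of the 7 genes (y axis) with bars of 1 SE from edgeR, for KO over WT in each tissue (left) and for endometrium over myometrium in each genotype (right). Padi2 in myometrium (1.97) and Padi4 in endometrium (1.54) lie farthest right on the left side with adjusted p of 0.844 and 0.771, and all values on the right side are above 0.

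The makeup of the samples was read from lists of marker genes. The summed level of the 6 epithelial markers had a median of 970.0 CPM in WT and 1270.4 CPM in KO uterus (ranges 543 to 1618 and 818 to 1630.4) and of 1279.6 and 1824 CPM in endometrium (763 to 4764 and 1222 to 2677). In myometrium it was 173 and 267 CPM (84.6 to 676 and 84.0 to 559). By edgeR 0 of the 6 markers were called between genotypes in any tissue, with 2 at an unadjusted p under 0.05 in uterus, 1 in endometrium and 0 in myometrium. The log2 difference was above 0 (higher in KO) for 5, 5 and 4 of the 6 in these tissues. The part of epithelial content in the differences of the members was not tested beyond the fits with that covariate. The 9 neutrophil markers summed to a median of 2.68 to 9.18 CPM over the 6 groups and at most 39.1 CPM (KO mouse 11, uterus), and Elane had 0 counts in all samples. In uterus 4 of them could be tested, with a median log2 difference of 1.12 (3 of 4 higher in KO). There Mpo differed by 1.83 ± 0.87 (unadjusted p = 0.0466, adjusted p = 0.862, edgeR) and Csf3r by -0.81 ± 0.86. In myometrium 0 of 3 were higher in KO (median -0.58), with Csf3r at -2.18 ± 1.06 (unadjusted p = 0.0479, edgeR). In endometrium only Ly6g could be tested (0.94 ± 1.00). Neutrophils hold the proteins of both Padi4 and Ltf, and their part in these differences was not tested. Uterine gland markers lay lower in KO, with a median log2 difference of -1.95 in uterus, -1.31 in endometrium and -1.57 in myometrium and 0 of those tested above 0. Among them Prss28 differed by -2.68 ± 0.86 and Prss29 by -1.95 ± 0.68 in uterus (unadjusted p = 0.00506 and 0.00876, adjusted p = 0.627 and 0.657, edgeR). Of the oviduct markers Ovgp1 differed by -1.87 ± 0.58 in uterus and -2.24 ± 1.02 in endometrium (unadjusted p = 0.00395 and 0.0381, adjusted p = 0.609 and 0.935, edgeR). In myometrium it differed by 1.24 ± 0.65 (unadjusted p = 0.0681, edgeR). Of the oviduct markers tested, 0 of 2 were above 0 in uterus, 1 of 3 in endometrium and 1 of 3 in myometrium. Their median log2 differences were -1.09, -2.24 and -0.29. The oviduct sum in WT endometrium reached 6425 CPM (mouse 8) around a median of 140 CPM, and the KO median was 173 CPM. Of 6 stromal markers 4, 2 and 6 were above 0 in uterus, endometrium and myometrium, with 1, 0 and 3 at an unadjusted p under 0.05 (edgeR). The part of glands, oviduct or stroma in the differences of the members was not tested.

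Whether genotype changed the layer difference itself was tested as an interaction in endometrium and myometrium. The interaction was called for 0 of 7 members and for 0% of the 14314 genes tested (edgeR, with 0 of 7 and 659 genes at an unadjusted p under 0.05, and 0 by DESeq2). It was largest in size for Padi2, at -1.36 ± 0.91 on the log2 scale, and for Clca1, at 1.14 ± 1.56. With the mouse as a replicate block 0 of 7 were called.

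Other genes that estrogen is known to regulate in the uterus were read from a separate list of 16, of which 15 were in the table and 10 passed the filter in each tissue comparison. Between genotypes 0 of 10 were called in each tissue, with 1, 2 and 0 at an unadjusted p under 0.05 in uterus, endometrium and myometrium. Lcn2, which encodes an iron-siderophore binding protein of the secretion, averaged 1006 CPM in WT and 4051 CPM in KO uterus, a log2 fold change of 2.13 ± 0.56 (unadjusted p = 0.000938, adjusted p = 0.572, edgeR), and 1.36 ± 0.60 in endometrium. Sprr2f, a small proline-rich protein of the epithelial surface, differed by 1.47 ± 0.73 in endometrium (unadjusted p = 0.0568, adjusted p = 0.957, edgeR). The genes under an unadjusted p of 0.05 in endometrium were Lcn2 and Igf1, a growth factor with the opposite sign (-0.93 ± 0.43, unadjusted p = 0.0383, adjusted p = 0.935, edgeR), and Aqp5, a water channel, was -0.79 ± 0.39 in uterus and -0.75 ± 0.46 in endometrium. Igf1 and Aqp5 were named after their values were seen. Between layers 4 of 10 were called higher in endometrium in WT and 4 of 10 in KO, namely Lcn2, Sprr2f, Pigr and Aqp5, and Ckb, a brain-type creatine kinase, was called lower in both (-2.35 ± 0.39 and -2.87 ± 0.48).

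The rest of the Padi and Clca families was low in counts. Of 12 further symbols 8 were in the table, and none exceeded 16 counts in a sample. Padi6, Clca4a and Clca4b had 0 counts in all samples, and Clca3a2 and Clca2 averaged 0.644 and 0.574 CPM. The most abundant was Clca3a1, with 2.77 CPM on average and counts in 31 samples. In WT myometrium it averaged 5.58 CPM, where Padi2 and Padi4 averaged 5.20 and 4.12 CPM. In uterus it averaged 5.29 CPM in WT and 0.61 CPM in KO. That log2 fold change was -2.66 ± 0.73 (unadjusted p = 0.00141, adjusted p = 0.572, edgeR), lower in KO. Its KO to WT difference was -0.66 ± 0.79 in endometrium and -1.22 ± 0.66 in myometrium. The summed level of these 8 genes had a median of 3.11 to 6.25 CPM over the 6 groups.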

How the data were processed

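Per the labels and the study's methods, RNA of each piece of uterus was made into libraries by single-cell tagged reverse transcription (STRT), which counts transcript 5′ ends with molecular identifiers. The authors deposited a table of raw counts per gene, 1 column a library, with 92 spike-ins. The submitters' processing notes name HTSeq and the build mm9, and the methods name TopHat and Homer with a UCSC gene annotation. The use of strand and of reads with several matches was not given in the sources used here. Library totals were 256298 to 1222627 gene counts, and levels under 3 counts (2.45 to 11.7 CPM) were read as not detected, a floor that covers counting error only.

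Repeat libraries of a mouse and tissue were summed. Genes reaching 1 CPM in 5 or more samples were tested with edgeR 4.0.16 (R 4.3.3; TMM, quasi-likelihood test) in the groups compared, and p-values were adjusted by Benjamini-Hochberg over all genes tested with a threshold of 0.05. DESeq2 1.42.0 was an alternative, as were other scalings, filters, covariates (plate rows, epithelial level), the mouse as a replicate block and leaving out each mouse. Exact tests and correlations over mice used log2 CPM with a prior count of 2 and scipy 1.17.1, the correlations with 100000 resamples, and tests were two-sided. The code was tested on simulated data. Samples with the same mouse number come from 1 animal. Over 14822 genes, their deviations from group means had a mean correlation of 0.0859 in WT and 0.128 in KO, against -0.0146 and -0.0213 for different mice. Subtracting the group means ties the values for different mice to those of the same mouse with opposite sign, so they are no independent reference. P-values measure the spread between these mice, except that the main layer and interaction fits took samples of the same mouse as independent.

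The 7 genes and the gene lists were chosen with earlier results of these data known. The text names the 7 genes, the 3 genes most like each member and some genes of the lists. A rule of at most 4 genes per list by highest mean CPM was not kept throughout. Names beyond it were all 6 epithelial markers, several other Padi and Clca genes, Igf1, Aqp5 and Elane. Lists of stromal, macrophage, squamous, oviduct and gland markers were read for makeup, and 0 of their genes were called between genotypes in any tissue. A further epithelial marker is not reported here and was left out of the list.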

Additional observations from a re-analysis of the deposited data

Results flagged for a closer look

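Ltf in endometrium of WT mouse 3 had a log2 CPM of 5.48 (44.2 CPM, 33 counts), and its gap to the nearest WT mouse was 0.658 of the range of the 7 mice in Dixon's test, past its 95% critical value. Ltf in myometrium of KO mouse 13 had a log2 CPM of 2.22 (2.14 CPM, 1 count), with a gap of 0.612 of the range. These were 2 of the 42 groups of 7 mice examined, and chance alone passes this limit in about 5% of groups.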

How the results depend on the processing

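The counts of members past the threshold stayed within 1.5 times the reported count under each alternative with 2 exceptions. With the mouse as a replicate block, 3 of 7 members were called between endometrium and uterus in WT and 1 of 7 in KO, where 0 were called without it. When single mice were left out, the count was 0 to 0 for KO against WT in each tissue, 4 to 7 for endometrium against myometrium in WT and 7 to 7 in KO. With the epithelial level as a covariate the KO to WT log2 difference turned to -0.10 for C3 and -0.83 for Padi2 in uterus, -0.00096 for Ltf in endometrium and 0.22 for Clca1 in myometrium. With spike-in scaling it turned to -0.38 for Padi2 in uterus and -0.0206 for C3 in myometrium. The same scaling turned endometrium against uterus in WT to -0.0718 for Ltf, -0.54 for C3, -0.19 for Muc1, -0.37 for Padi2 and -0.29 for Padi4, and the Padi1 interaction to 0.18. With the replicate block C3 in that comparison was -0.0163. With single mice left out, KO against WT ranged from -0.41 to 0.96 for Padi2 in uterus, from -0.0234 to 2.43 for Clca1 and -0.0917 to 1.14 for Padi2 in endometrium, and from -0.20 to 1.31 for Ltf, -0.0704 to 0.55 for C3 and -1.01 to 1.53 for Clca1 in myometrium. The cause was not tested. Low depth limits Padi4, Padi2 and Clca1 in myometrium, where values rest on few counts.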
